A study of Mus musculus with 10 samples.

Results

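The genes described here are the 29 that encode the mitochondrial pyruvate carrier, the pyruvate dehydrogenase (PDH) complex with its kinases and phosphatases, pyruvate carboxylase, enzymes of the tricarboxylic acid (TCA) cycle, and the malate dehydrogenases and aspartate aminotransferases of the malate-aspartate shuttle. They were chosen by gene symbol, and all 29 were present among the 57185 genes with a value in the count table. RNA was sequenced from ventricles of 10 mice, 5 per genotype, one library per mouse, and reads were counted per gene. Both groups carried the MLP knockout (loss of muscle LIM protein, the product of Csrp3, which gives dilated cardiomyopathy) and floxed RAD alleles, and all mice received tamoxifen once, 100 mg per kg intraperitoneally, at 10 weeks of age. In the MLPKO-cRADKO group an MYH6-driven MerCreMer recombinase was present in addition, so that tamoxifen deleted RAD (gene Rrad, a small G protein that restrains the L-type calcium channel) in cardiomyocytes. The MLPKO group had no recombinase, so an effect of the recombinase itself and an effect of the deletion cannot be told apart. Hearts were taken 1 month after tamoxifen from mice described as male and labelled 16 weeks of age, which does not match tamoxifen at 10 weeks with 1 month added, and the exact age is therefore uncertain. The sample, labelled left ventricle, was the apical part of the ventricles. No mouse with intact MLP was included, so each comparison below is of MLPKO-cRADKO with MLPKO.

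Pyruvate made by glycolysis or from lactate crosses the inner mitochondrial membrane through a carrier of MPC1 and MPC2. The PDH complex converts it irreversibly to acetyl-CoA, and phosphorylation of its E1 subunit by PDH kinases switches it off, while PDH phosphatases switch it on again, with one of them stimulated by calcium. The TCA cycle oxidises acetyl-CoA and passes electrons to the respiratory chain. The adult heart takes most of its acetyl-CoA from fatty acids, and the malate-aspartate shuttle carries reducing equivalents of the cytosol into its mitochondria.

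Libraries held between 33457406 and 49965101 counts (median 43738141), and 13453 genes passed the filter on low counts, all 29 members among them. One library, MLPKO mouse 2, stood apart. On the first principal component, with 35.3% of the variance, it lay at 55.7 against -24.0 to 22.5 in the other 9 mice, and a member's log2 fold change is also given without it where that moves the value by over 1.5 times. The share of counts in mitochondrially encoded genes was 18.3% ± 2.09 (SD, n = 5) in MLPKO and 22.0% ± 0.552 in MLPKO-cRADKO, a difference of 3.70 percentage points (two-sided exact permutation test, p = 0.00794, the smallest that 5 mice against 5 allow). Rrad counts over the whole gene were 5774 to 11644 in MLPKO and 5562 to 8361 in MLPKO-cRADKO (log2 fold change -0.38 ± 0.20 SE, edgeR adjusted p = 0.290), and Csrp3 counts were 41726 to 134800 in MLPKO and 28553 to 48663 in MLPKO-cRADKO (-1.08 ± 0.29, edgeR adjusted p = 0.0667, and 0.0313 to 0.149 over the alternatives). A whole-gene count does not show whether particular exons are missing, and other heart cells keep Rrad, so neither deletion was checked by these values. Summed cardiomyocyte markers lay between 68390 and 75469 CPM (counts scaled to a common library total) in MLPKO and between 53351 and 69810 in MLPKO-cRADKO, and the 8 macrophage markers between 143 and 203 and between 175 and 316 CPM. Of the 8 cardiomyocyte markers 2 were higher and 6 lower in MLPKO-cRADKO, with Tnnt2 past the threshold, and all 8 macrophage markers and all 7 endothelial markers had higher means. Of the 8 fibroblast markers 4 had higher means and the rest lower, with a median log2 fold change of 0.03. Of the 6 smooth muscle and pericyte markers tested, 4 had higher means and the rest lower (median 0.11). Among them Acta2 and Rgs5 of smooth muscle and pericytes and Dpt of fibroblasts were past the threshold, all higher. The call of Dpt held without any one mouse, while with single mice left out the adjusted p reached 0.0590 for Tnnt2 (without MLPKO-cRADKO mouse 5), 0.0963 for Acta2 and 0.0764 for Rgs5. The 5 adipocyte markers summed to 28.3 CPM in MLPKO-cRADKO mouse 3. There Adipoq had 244, Plin1 373 and Cidec 447 normalized counts, and these 3 genes had at most 9.12 in any other mouse. Other mice were uneven as well. The atrial markers Myl4 (810 normalized counts) and Myl7 (188) were highest in MLPKO-cRADKO mouse 1, against at most 219 and 77.3 elsewhere. MLPKO mouse 2 was highest for the atrial marker Nppa (100670) and the red blood cell genes Hba-a1 (53272) and Hbb-bs (54514). Hba-a2 was highest in MLPKO-cRADKO mouse 4. Summed red blood cell markers ran from 288 to 2798 CPM in MLPKO and from 409 to 1978 in MLPKO-cRADKO. In whole tissue, fewer cells of a type and less RNA per cell cannot be told apart, and the part of these shifts in the results below was not tested.

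Transcript levels of pyruvate oxidation and the TCA cycle lay close together in the genotypes, with wide intervals for 3 members. With edgeR's quasi-likelihood test, 0 of the 29 members had an adjusted p under 0.05, against 2.74% of all genes tested. At an unadjusted p under 0.05 there were 9, against 21.6% of all genes. Of these, 6 were higher in MLPKO-cRADKO (Mpc2, Pdk3, Idh3a, Suclg1, Suclg2, Got1), against 10.1% of all genes, and 3 lower (Mpc1, Pcx, Got2), against 11.5%. DESeq2 placed 2 members past the threshold, Suclg2 and Got1, both higher, against 10.0% of all genes with an adjusted p in that test (3.96% higher), and limma-voom placed 0. By position alone, 3 members had all MLPKO-cRADKO mice above all MLPKO mice (Got1, Mpc2 and Idh3a), against 2.64% of all genes, and 0 lay wholly below, against 3.98% (6.62% in either direction). Without MLPKO mouse 2 the count above was again 3, against 3.72%, and 1 member, Mpc1, lay wholly below, against 5.11%.

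The differences were small in size and mostly of one sign. Of the 29 members 23 had a higher mean in MLPKO-cRADKO (79.3%), against 52.1% of all genes, and the median log2 fold change was 0.06, against 0.01 over all genes. Without MLPKO mouse 2, 20 of 29 were higher and the median was again 0.06. For 26 of 29 members the 95% interval of the log2 fold change lay within 0.5 of zero on either side, which held for 61.6% of all genes. The exceptions were Pdk3, Pdk4 and Pdp2, whose intervals reached 0.91, 1.16 and 1.08.

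**Figure D1:**
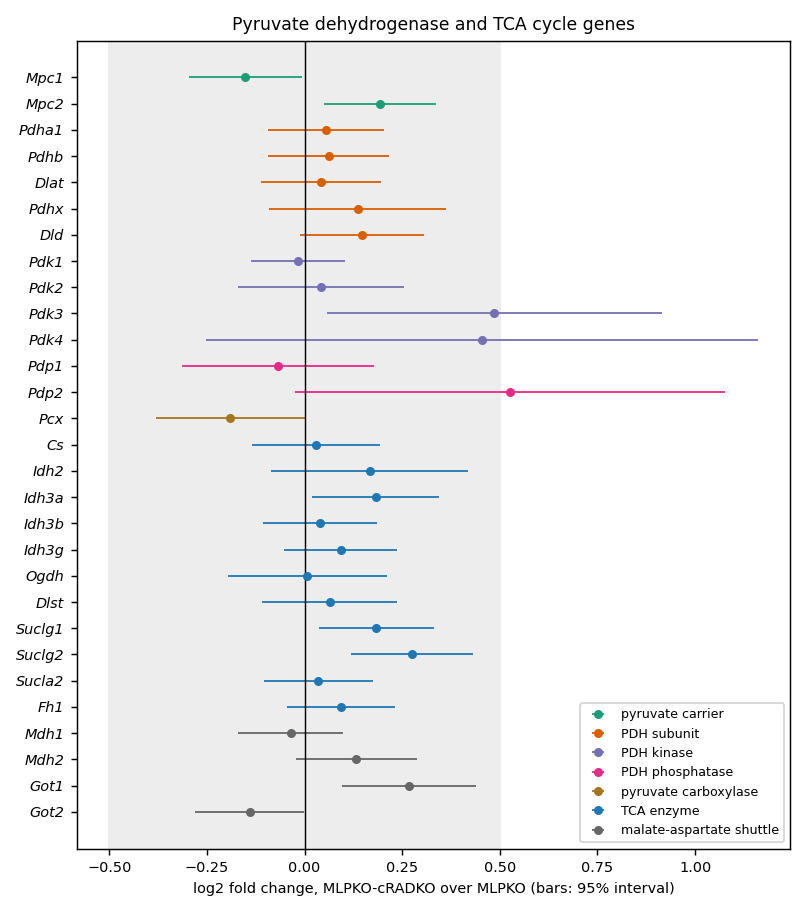
Log2 fold change of each member (points) with its 95% interval (bars) from the edgeR fit, on the horizontal axis, for MLPKO-cRADKO over MLPKO, 5 mice each, coloured by role, with the range from -0.5 to 0.5 shaded. Most of the 29 members lie close to zero, and the intervals of Pdk3, Pdk4 and Pdp2 leave the shaded range.

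The 2 genes of the pyruvate carrier had mean differences of opposite sign. Both subunits are needed for transport. Mpc1 (ENSMUSG00000023861) encodes one of them, and its normalized counts were 2089, 1882, 2111, 2075 and 2062 in the MLPKO mice and 1676, 1671, 1931, 1998 and 1927 in the MLPKO-cRADKO mice. All MLPKO mice but mouse 2 lay above every MLPKO-cRADKO mouse. On the log2 scale the difference was -0.15 ± 0.07 (SE), short of the threshold (edgeR adjusted p = 0.210). Mpc2 (ENSMUSG00000026568), the partner subunit, had 7504, 7170, 8440, 8212 and 8618 counts in MLPKO and 8765, 9598, 8970, 9701 and 8631 in MLPKO-cRADKO. Its groups did not overlap, although the highest MLPKO mouse and the lowest MLPKO-cRADKO mouse nearly met, and the log2 fold change was 0.19 ± 0.07 (adjusted p = 0.118).

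Within a mouse the ratio of Mpc1 to Mpc2 counts does not depend on how the libraries are scaled. It was 0.278, 0.263, 0.250, 0.253 and 0.239 in MLPKO and 0.191, 0.174, 0.215, 0.206 and 0.223 in MLPKO-cRADKO, so that every MLPKO-cRADKO mouse was below every MLPKO mouse. The difference of the mean log2 ratios was -0.35 (two-sided exact permutation test, p = 0.00794, the smallest possible, adjusted p = 0.0119 over the 6 ratios tested). Of all 406 ratios that the 29 members can form, 58 had no overlap between the genotypes (14.3%). The 6 pairs were chosen with earlier results of these data known, and the adjustment over 6 ratios does not account for that choice. Mpc1 has a processed copy elsewhere in the genome, Mpc1-ps, which held a mean of 1529 normalized counts. MLPKO-cRADKO mice 1 and 2, the lowest for Mpc1, had the highest normalized counts of Mpc1-ps (1789 and 1779). The sum of both was 3504 ± 283 (SD, n = 5) in MLPKO and 3439 ± 67.2 in MLPKO-cRADKO (log2 difference -0.02, exact permutation p = 0.762). With the sum in place of Mpc1, the difference of the ratio to Mpc2 was -0.22 (exact permutation test, adjusted p = 0.0119). The lower value of Mpc1 alone is therefore uncertain, since the counting could divide reads between the gene and its copy.

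The 5 PDH subunit genes all had slightly higher means in MLPKO-cRADKO, with log2 fold changes from 0.04 to 0.15. Pdha1, the X-linked E1 alpha subunit that carries the phosphorylation sites, had 26194, 24735, 27883, 30261 and 29597 counts in MLPKO and 27775, 29411, 27566, 30679 and 28560 in MLPKO-cRADKO, with the groups intermixed (log2 fold change 0.05, 95% interval -0.09 to 0.20). Pdhb, the E1 beta subunit, had 24549, 23971, 21076, 23491 and 27263 counts in MLPKO and 23313, 26123, 26048, 25496 and 24614 in MLPKO-cRADKO, again intermixed (0.06, 95% interval -0.09 to 0.22). The log2 fold change of Pdha1 was 0.016 without MLPKO mouse 2. The ratio of Pdha1 to Pdhb counts was 1.07, 1.03, 1.32, 1.29 and 1.09 in MLPKO and 1.19, 1.13, 1.06, 1.20 and 1.16 in MLPKO-cRADKO. The MLPKO range contained the whole MLPKO-cRADKO range, and the mean log2 ratios differed by -0.01 (exact permutation p = 0.905). Dlat, the E2 acetyltransferase core, had a log2 fold change of 0.04 (95% interval -0.11 to 0.20). Pdhx, the protein that binds E3 to that core, had 0.14 (-0.09 to 0.36), and Dld, the E3 dehydrogenase that the complex shares with 2-oxoglutarate dehydrogenase, had 0.15 (-0.01 to 0.31). These values were 0.020 for Dlat, 0.065 for Pdhx and 0.092 for Dld without MLPKO mouse 2, and Pdhx was also lower, at 0.069, without MLPKO-cRADKO mouse 3, the mouse with adipocyte transcripts.

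The PDH kinases held the member that varied most in MLPKO-cRADKO. Pdk4, the isoform that rises with fasting and fatty acid use, had 18185, 18131, 19251, 12670 and 14323 counts in MLPKO and 31483, 8096, 27823, 32415 and 13283 in MLPKO-cRADKO. MLPKO-cRADKO mice 1, 3 and 4 lay above all MLPKO mice and mouse 2 lay below them all. The coefficient of variation was 49.4% in MLPKO-cRADKO, at percentile 96.4 of all genes tested, and 17.3% in MLPKO, at percentile 63.3, where Pdp2 varied most of the members (38.8%). The log2 fold change of 0.45 had a 95% interval from -0.25 to 1.16 (edgeR adjusted p = 0.450), which contains zero. It was 0.29 without MLPKO-cRADKO mouse 4, 0.29 in limma-voom and 0.29 with the mouse number as a block. With each mouse left out in turn it ran from 0.29 to 0.67. Pdk2, the kinase with the highest level per kilobase here, had 15330, 12572, 17039, 17506 and 15217 counts in MLPKO and 13651, 15514, 16288, 17979 and 16572 in MLPKO-cRADKO (log2 fold change 0.04, 95% interval -0.17 to 0.26, and -0.024 without MLPKO mouse 2), with no separation of the groups. The ratio of Pdk4 to Pdk2 ran from 0.724 to 1.44 in MLPKO and from 0.522 to 2.31 in MLPKO-cRADKO, with the wider range in MLPKO-cRADKO, and the mean log2 ratios differed by 0.23 (exact permutation p = 0.603), or by 0.012 to 0.55 with a mouse left out.

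Pdk3, an X-linked kinase, was the member with the fewest counts. It had 50.6, 57.6, 58.8, 73.9 and 69.3 normalized counts in MLPKO and 81.6, 78.3, 125, 81.0 and 69.2 in MLPKO-cRADKO. All MLPKO-cRADKO mice but mouse 5 lay above the highest MLPKO mouse, and the highest of all was mouse 3, with adipocyte transcripts. The log2 fold change was 0.49 ± 0.20 (SE, 95% interval 0.06 to 0.91, edgeR adjusted p = 0.177), and 0.33 without mouse 3. Pdk1 had the narrowest interval of the kinases, with a log2 fold change of -0.02 (-0.14 to 0.10).

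The phosphatases were among the members with the lowest levels. Pdp2 had 1016, 487, 1139, 1537 and 824 counts in MLPKO and 1326, 1127, 1393, 2047 and 1324 in MLPKO-cRADKO. The groups overlapped, with the lowest value in MLPKO mouse 2 and the highest in MLPKO-cRADKO mouse 4. Its log2 fold change was 0.53, the largest of the members, with a 95% interval from -0.02 to 1.08 (edgeR adjusted p = 0.253), and 0.36 without MLPKO mouse 2. Pdp2 lies on chromosome 8 from 105318052 to 105325671 (GRCm39), and its end is 29023 bases from the targeted Rrad gene at 105354695 to 105357990. Of their neighbours, Cdh16, which lies between them, had a log2 fold change of 0.71 (adjusted p = 0.110), and Ciao2b, on the far side of Rrad, had 0.28 (adjusted p = 0.0673). On the other side of Pdp2, Nae1 had -0.11 (adjusted p = 0.526) and Car7 had -0.0016 (adjusted p = 0.997). Whether their place beside the floxed gene has a part in these values was not tested. Pdp1, the calcium-stimulated phosphatase, had a log2 fold change of -0.07 (-0.31 to 0.18), and -0.15 without MLPKO mouse 2. Pcx, pyruvate carboxylase, which makes oxaloacetate from pyruvate, had 1514, 1844, 2075, 1898 and 1858 counts in MLPKO and 1441, 1492, 1678, 1791 and 1649 in MLPKO-cRADKO, with overlap through MLPKO mouse 1 (log2 fold change -0.19 ± 0.09 SE, adjusted p = 0.232).

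**Figure D2:**
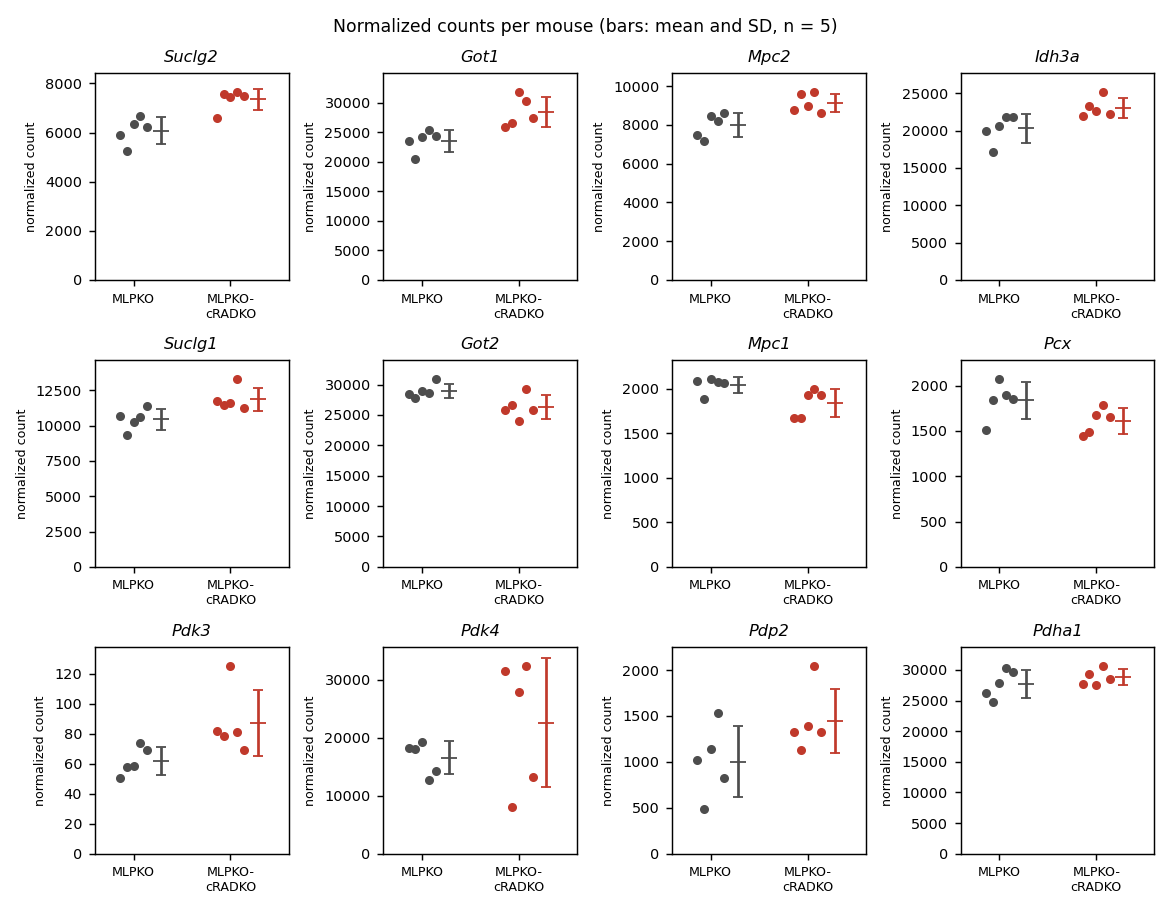
Normalized counts (vertical axes, from 0) of 12 members in each of the 5 MLPKO (grey) and 5 MLPKO-cRADKO (red) mice, with mean and SD beside the points. Got1, Mpc2 and Idh3a have no overlap between the genotypes, and the MLPKO-cRADKO points of Pdk4 are spread from 8096 to 32415.

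All 11 TCA enzyme genes had a higher mean in MLPKO-cRADKO, with log2 fold changes from 0.01 to 0.28 and a median of 0.09. Without MLPKO mouse 2, 9 of the 11 were higher and the median was 0.07. The largest were those of Suclg2, Suclg1 and Idh3a. Cs, citrate synthase, at the entry of the cycle, had a log2 fold change of 0.03 (95% interval -0.14 to 0.19). Idh3a, the catalytic subunit of the NAD-dependent isocitrate dehydrogenase, had 19979, 17188, 20641, 21783 and 21888 counts in MLPKO and 21936, 23264, 22593, 25174 and 22203 in MLPKO-cRADKO. The groups did not overlap (the closest pair were MLPKO mouse 5 and MLPKO-cRADKO mouse 1), and the log2 fold change was 0.18 ± 0.07 (SE, edgeR adjusted p = 0.182). The other subunits of that enzyme, Idh3b and Idh3g, had 0.04 (-0.11 to 0.19) and 0.09 (-0.05 to 0.24). Idh2, the NADP-dependent mitochondrial isocitrate dehydrogenase, had 0.17 (-0.09 to 0.42). Ogdh and Dlst, the E1 and E2 components of 2-oxoglutarate dehydrogenase, had 0.01 (-0.20 to 0.21) and 0.06 (-0.11 to 0.24), and Fh1, fumarase, had 0.09 (-0.05 to 0.23). Leaving out MLPKO mouse 2, which was the lowest of the 10 mice for each of these genes, the log2 fold change was 0.080 for Idh2, 0.013 for Idh3b, 0.0063 for Dlst, -0.012 for Cs and -0.051 for Ogdh.

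Succinyl-CoA ligase, which forms a nucleoside triphosphate directly in the cycle, is a dimer of the alpha subunit Suclg1 with either of a pair of beta subunits, Suclg2 for the GTP-forming and Sucla2 for the ATP-forming enzyme. Suclg2 (ENSMUSG00000061838) had 5883, 5235, 6353, 6669 and 6245 counts in MLPKO and 6598, 7574, 7464, 7650 and 7499 in MLPKO-cRADKO. All MLPKO-cRADKO mice but mouse 1 were above every MLPKO mouse. The means were 6077 ± 548 and 7357 ± 430 (SD, n = 5 each), a log2 fold change of 0.28 ± 0.07 (SE, 95% interval 0.12 to 0.43), with an adjusted p of 0.0609 in edgeR and 0.0114 in DESeq2, and from 0.0114 to 0.135 over all alternatives. Suclg1 had 10694, 9339, 10272, 10578 and 11387 counts in MLPKO and 11746, 11466, 11585, 13309 and 11276 in MLPKO-cRADKO, where only the highest MLPKO mouse and the lowest MLPKO-cRADKO mouse crossed (log2 fold change 0.18 ± 0.07, edgeR adjusted p = 0.142). Sucla2 had 19156, 18097, 20198, 20901 and 21086 counts in MLPKO and 19849, 21196, 18883, 21899 and 20064 in MLPKO-cRADKO. These groups were intermixed, with a log2 fold change of 0.04 (95% interval -0.10 to 0.17), and 0.0031 without MLPKO mouse 2.

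The beta subunits differed in their ratio. The ratio of Sucla2 to Suclg2 counts was 3.26, 3.46, 3.18, 3.13 and 3.38 in MLPKO and 3.01, 2.80, 2.53, 2.86 and 2.68 in MLPKO-cRADKO, with the highest MLPKO-cRADKO mouse below the lowest MLPKO mouse. The mean log2 ratios differed by -0.24 (two-sided exact permutation test, p = 0.00794, adjusted p = 0.0119 over the 6 ratios). Of all ratios of 2 members 14.3% had no overlap, and this pair too was chosen with earlier results known. Of the pairs whose ratios had no overlap, promoters are shown for this one and, below, for Got1 and Got2. They are the 250 bases before the RefSeq start, on GRCm38.p6, chr6:95718847-95719096 on the minus strand for Suclg2 and chr14:73552536-73552785 on the plus strand for Sucla2, and capitals mark matches on either strand to the GC box GGGCGG and the CCAAT box.
Suclg2: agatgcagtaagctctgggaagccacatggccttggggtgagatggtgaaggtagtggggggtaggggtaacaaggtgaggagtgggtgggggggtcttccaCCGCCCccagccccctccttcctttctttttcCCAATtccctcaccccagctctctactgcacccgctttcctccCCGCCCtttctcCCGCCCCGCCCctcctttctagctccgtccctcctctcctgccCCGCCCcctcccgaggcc
Sucla2: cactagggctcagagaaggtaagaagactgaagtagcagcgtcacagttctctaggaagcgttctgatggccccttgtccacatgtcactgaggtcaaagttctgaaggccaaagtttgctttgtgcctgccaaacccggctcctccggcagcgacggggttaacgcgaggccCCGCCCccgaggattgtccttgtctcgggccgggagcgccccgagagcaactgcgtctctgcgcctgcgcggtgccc
The Suclg2 window holds 5 GC boxes, a pair of which overlap by a base, and 1 CCAAT box, and the Sucla2 window holds 1 GC box. Such matches describe letters and are not shown to be bound.

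For the shuttle enzymes, the ratio of the cytosolic to the mitochondrial form went in opposite directions in the 2 pairs. The mean log2 ratio of Got1 to Got2 was 0.41 higher in MLPKO-cRADKO, and that of Mdh1 to Mdh2 was 0.17 lower. None of these genes passed the threshold in edgeR. Got1 (ENSMUSG00000025190), the cytosolic aspartate aminotransferase, had 23424, 20486, 24219, 25361 and 24365 counts in MLPKO and 25840, 26523, 31783, 30329 and 27355 in MLPKO-cRADKO. Every MLPKO-cRADKO mouse was above every MLPKO mouse, and the highest was mouse 3. The means were 23571 ± 1857 and 28366 ± 2566 (SD, n = 5 each), a log2 fold change of 0.27 ± 0.08 (SE, 95% interval 0.10 to 0.44), with an adjusted p of 0.0820 in edgeR and 0.0215 in DESeq2, and from 0.0215 to 0.156 over all alternatives. Got2 (ENSMUSG00000031672), the mitochondrial form, had 28529, 27794, 28868, 28692 and 30935 counts in MLPKO and 25745, 26573, 23929, 29313 and 25809 in MLPKO-cRADKO. All MLPKO-cRADKO mice but mouse 4 lay below every MLPKO mouse, a log2 fold change of -0.14 ± 0.06 (SE, adjusted p = 0.228 in edgeR).

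The ratio of Got1 to Got2 counts was 0.821, 0.737, 0.839, 0.884 and 0.788 in MLPKO and 1.00, 0.998, 1.33, 1.03 and 1.06 in MLPKO-cRADKO. No MLPKO mouse reached the lowest MLPKO-cRADKO mouse, and the mean log2 ratio was 0.41 higher, or 0.33 higher without MLPKO-cRADKO mouse 3, the highest (two-sided exact permutation test, p = 0.00794 and adjusted p = 0.0119 over the 6 ratios with all mice). Such separation was found in 14.3% of all ratios of 2 members, and this pair was also chosen with earlier results known. The promoters of this pair, which had the largest ratio difference of the 6, are on GRCm38.p6 at chr19:43524606-43524855 for Got1 and chr8:95888402-95888651 for Got2, both on the minus strand. Capitals mark the CCAAT box, on either strand, and AAGGTCA, the half-site bound by estrogen-related receptors.
Got1: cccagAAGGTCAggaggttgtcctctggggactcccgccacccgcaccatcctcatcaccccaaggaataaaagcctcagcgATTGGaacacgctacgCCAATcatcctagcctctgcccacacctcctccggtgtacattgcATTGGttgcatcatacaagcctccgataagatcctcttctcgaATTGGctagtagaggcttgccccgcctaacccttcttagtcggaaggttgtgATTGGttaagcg
Got2: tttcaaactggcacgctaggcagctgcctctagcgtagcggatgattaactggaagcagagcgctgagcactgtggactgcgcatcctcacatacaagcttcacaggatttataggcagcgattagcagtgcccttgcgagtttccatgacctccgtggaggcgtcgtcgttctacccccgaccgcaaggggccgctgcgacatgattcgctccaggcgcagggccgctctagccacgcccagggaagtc
The Got1 window holds 5 CCAAT boxes and 1 AAGGTCA, the only such half-site among the 27 members with a promoter in the table, and the Got2 window holds no match to any of the motifs searched.

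Mdh1, the cytosolic malate dehydrogenase, had 74550, 73725, 73899, 74033 and 80424 counts in MLPKO and 73262, 77400, 67146, 77411 and 72145 in MLPKO-cRADKO, and the groups overlapped (log2 fold change -0.04, 95% interval -0.17 to 0.10). Mdh2, the mitochondrial form that also closes the TCA cycle, had 39462, 35504, 37569, 39632 and 40618 counts in MLPKO and 39326, 43504, 39090, 48022 and 41452 in MLPKO-cRADKO, also with overlap (0.13, 95% interval -0.02 to 0.29). Their ratio separated the genotypes by a narrow margin. It was 1.89, 2.08, 1.97, 1.87 and 1.98 in MLPKO and 1.86, 1.78, 1.72, 1.61 and 1.74 in MLPKO-cRADKO, a difference of -0.17 in the mean log2 ratio (two-sided exact permutation test, p = 0.00794, adjusted p = 0.0119 over the 6 ratios). The pairs were chosen with earlier results of these data known, which the adjusted p over 6 ratios does not take into account.

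**Figure D3:**
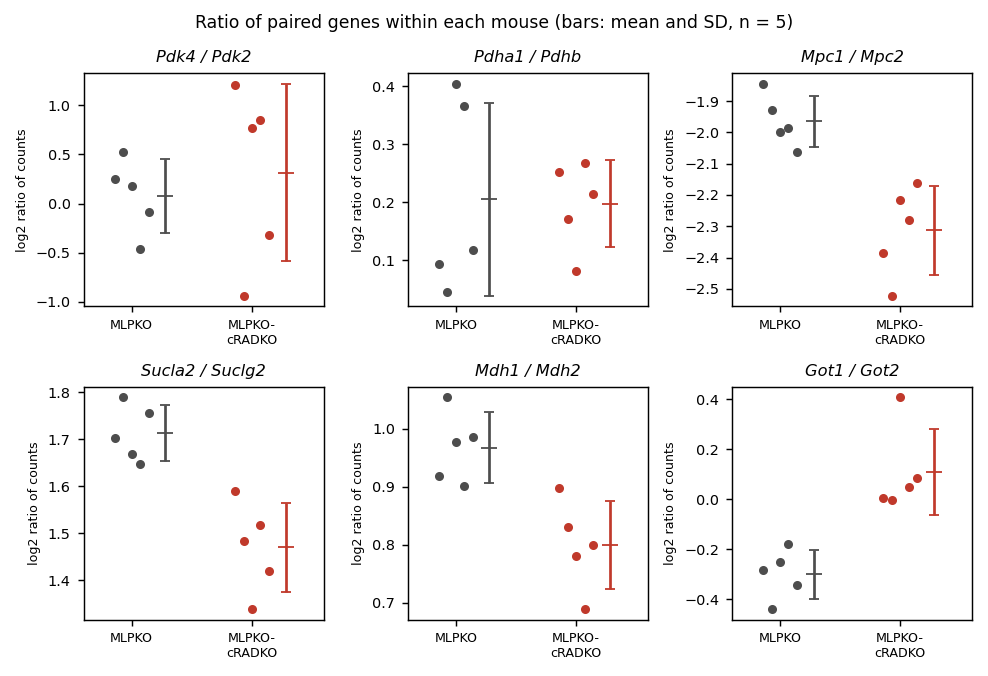
Log2 ratio of the raw counts of paired genes within each mouse (vertical axes), for 5 MLPKO (grey) and 5 MLPKO-cRADKO (red) mice, with mean and SD beside the points. The ratios Mpc1/Mpc2, Sucla2/Suclg2 and Mdh1/Mdh2 are lower and Got1/Got2 is higher in every MLPKO-cRADKO mouse than in every MLPKO mouse, while Pdk4/Pdk2 and Pdha1/Pdhb overlap.

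Across the promoters, the GC box was present in 17 of 27 members (63.0%), against 32.9% of 27025 promoters of the same length, and the CCAAT box also in 17 (63.0%), against 34.5%. The members' median GC content was 61.6%, against 52.0% over all promoters. The 27025 promoters were not limited to the 13453 genes that passed the filter on low counts, while all 29 members passed it. The E-box CACGTG was present in 3 members (Pcx, Pdk2 and Pdp2, 11.1%, against 6.05%) and the ETS motif CCGGAAG in 2 (Idh3g and Mpc1, 7.41%, against 7.05%). The half-site AAGGTCA was present in 3.70% of members, against 4.05% of all promoters, and the NRF1 motif GCGCATGCG in 0 members, against 1.49%. These letters were looked for only in the 250 bases before the start.

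The levels of the members, as normalized counts per kilobase of transcript averaged over the 10 mice, ran from 30.3 for Pdk3 to 32065 for Idh2. Idh2, Mdh1 (29712) and Mdh2 (26909) had the highest levels, and the ranges over mice of these 3 overlapped. Idh3b (16715) and Pdhb (16159) came next, also with overlapping ranges. Of the PDH complex, Pdhb and Pdha1 (9869) of E1 stood above Dld (3611), Dlat (3098) and Pdhx (1130). The kinases ran from Pdk2 (6837) through Pdk4 (5205) and Pdk1 (2008) to Pdk3, and the range of Pdk4, from 2154 to 8623, contained that of Pdk2. The phosphatases Pdp1 (313) and Pdp2 (213) and Pcx (408) were below every member but Pdk3. Of the succinyl-CoA ligase subunits, Suclg1 (7350) and Sucla2 (6752) were close and Suclg2 (1959) was lower.

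**Figure D4:**
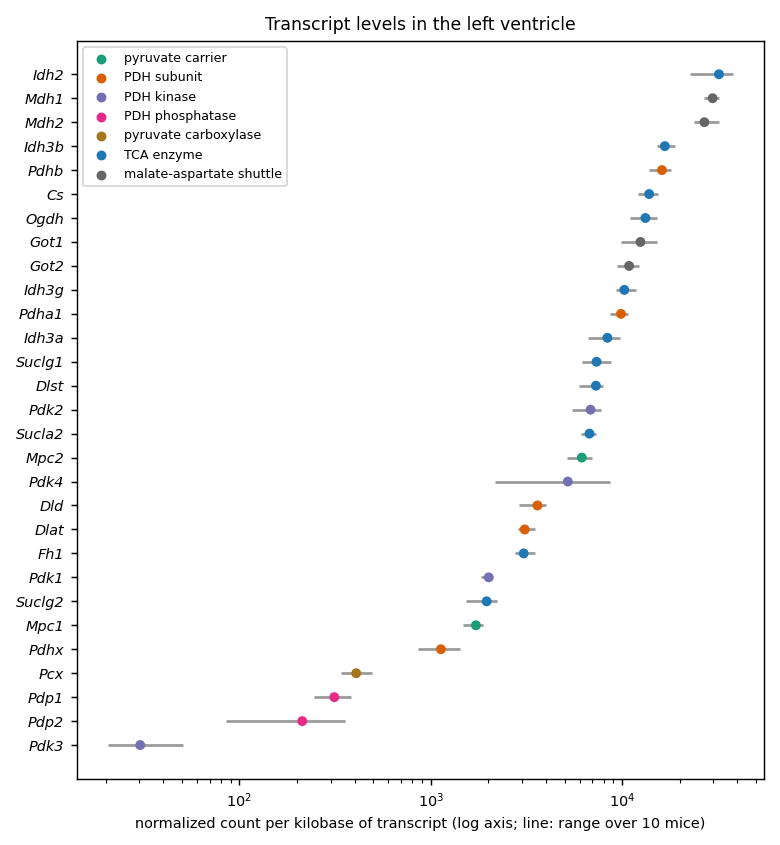
Normalized count per kilobase of transcript (log axis) of each member, with points for the mean and lines for the range over the 10 mice, coloured by role. Levels run from 30.3 for Pdk3 to 32065 for Idh2, and Pdk4 has a range from 2154 to 8623.

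Most members varied little between mice of a genotype. The median coefficient of variation was 8.57% in MLPKO and 7.47% in MLPKO-cRADKO, against 12.9% and 10.4% over all genes, and 19 of 29 members stayed under 10% in both. Single mice were low or high for many members at once. MLPKO mouse 2 had the lowest value of its group in 24 of 29 members, while it was lowest of its group in 28.4% of all genes, and it was the lowest of all 10 mice in 20. MLPKO-cRADKO mouse 4 was the highest of its group in 21 members and the highest of all 10 mice in 16. The shares of all genes beside these counts of 20, 21 and 16 were not computed. Whether mouse 4 was high for these members or for genes at large was therefore not tested. Summed over the members, the share of all counts was 1.30% in MLPKO mouse 2, from 1.50% to 1.58% in the other MLPKO mice and from 1.52% to 1.79% in MLPKO-cRADKO, where mouse 4 was the highest.

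**Figure D5:**
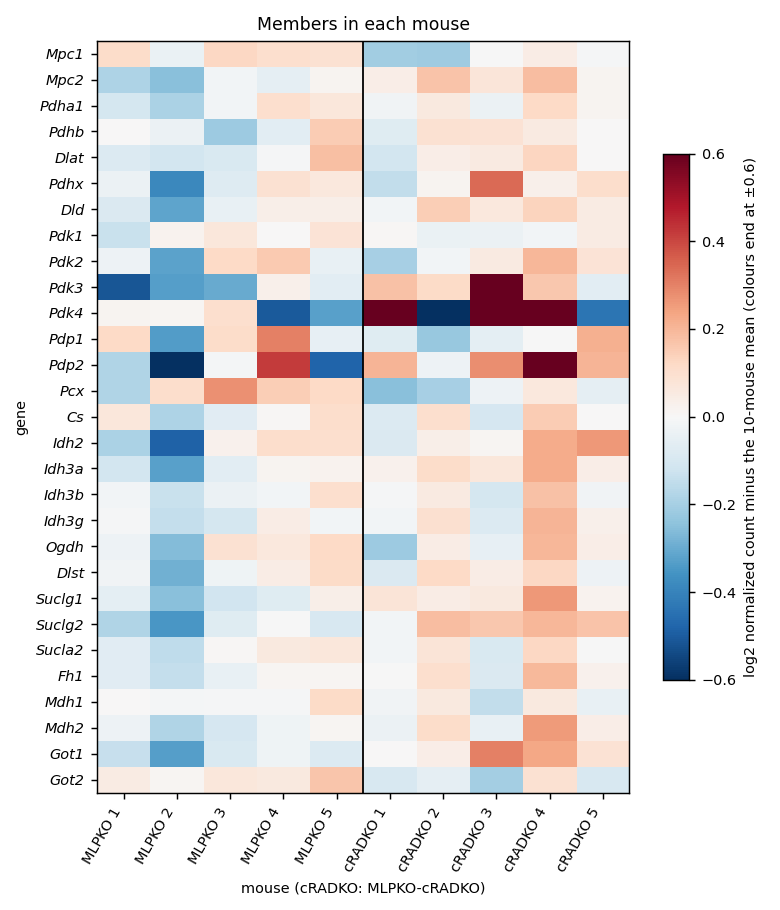
Log2 normalized count of each member (vertical axis) in each mouse (horizontal axis) minus its mean over the 10 mice, from blue (lower) to red (higher), with the colours ending at 0.6 on either side. The column of MLPKO mouse 2 is mostly blue, with the lowest value of the 10 mice in 20 of 29 members, and that of MLPKO-cRADKO mouse 4 is mostly red, with the highest in 16.

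Neighbouring pathways were read from lists of genes beside the members, and the lists share some genes. Sdha, Sdhb, Sdhc and Sdhd are counted both in the first list below and under oxidative phosphorylation. Ldha and Ldhb are counted both in the first list and under glycolysis. Of 39 other genes of pyruvate and TCA metabolism, which include the succinate dehydrogenase, aconitase, lactate dehydrogenase and malic enzyme genes, 1 was higher and 1 lower in MLPKO-cRADKO at an edgeR adjusted p under 0.05, against 0.944% and 1.80% of all genes, and 22 of the 39 had a higher mean, with a median log2 fold change of 0.02. Leaving out MLPKO mouse 2, 14 had a higher mean and the median was -0.04. The higher one was Acly, which cleaves citrate in the cytosol, with 1302, 1285, 1277, 1281 and 1218 counts in MLPKO and 1509, 1408, 1764, 1579 and 1469 in MLPKO-cRADKO, the highest again in mouse 3. The lower one was Slc16a1, the lactate and pyruvate transporter MCT1, with 10982, 10789, 11570, 11610 and 13658 counts in MLPKO and 8122, 10614, 8137, 8522 and 9009 in MLPKO-cRADKO. Neither gene had overlapping groups, although MLPKO-cRADKO mouse 2 came close to MLPKO mouse 2 for Slc16a1. The log2 fold changes were 0.28 ± 0.06 (SE, adjusted p = 0.0442) for Acly and -0.40 ± 0.09 (adjusted p = 0.0395) for Slc16a1. With a mouse left out, Acly passed only without MLPKO mouse 4 or MLPKO-cRADKO mouse 2, and Slc16a1 only without either of these or MLPKO mouse 2. Both calls were lost in the fit with the mouse number as a block, and over all alternatives the adjusted p ran from 0.00426 to 0.0966 for Acly and from 0.000816 to 0.0975 for Slc16a1.

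The electron transport genes that take up the cycle's reducing equivalents had mostly higher means in MLPKO-cRADKO. Of 99 nuclear genes of oxidative phosphorylation, 91 had a higher mean (91.9%, against 52.1% of all genes), with a median log2 fold change of 0.14. In DESeq2 10 rose past the threshold, against 3.96% of all genes, and in edgeR 3 did, against 0.944%. The 3 in edgeR were Cox8a (0.32, adjusted p = 0.0249), Ndufa1 (0.32, adjusted p = 0.0475) and Ndufv3 (0.30, adjusted p = 0.0492). Without MLPKO mouse 2, 87 were higher and the median was 0.11, and the adjusted p was 0.0318, 0.0646 and 0.0649 for these 3 genes. Over all mice left out in turn, it reached 0.0700, 0.102 and 0.105, the calls of Ndufa1 and Ndufv3 held only without MLPKO mouse 4, and that of Cox8a was lost without MLPKO mouse 5 or MLPKO-cRADKO mouse 2, 4 or 5. Of 19 genes of fatty acid oxidation 17 had a higher mean, with a median of 0.13, and 0 passed the threshold in edgeR (4 at an unadjusted p under 0.05 and 1 in DESeq2). The smallest adjusted p values there were those of Etfb (0.31, adjusted p = 0.0661), Hadh (0.27, adjusted p = 0.175) and Etfa (0.20, adjusted p = 0.177). Without MLPKO mouse 2, 11 of the 19 were higher and the median was 0.03.

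Of 17 glycolysis genes tested, 10 had a lower mean in MLPKO-cRADKO, with a median log2 fold change of -0.03. In edgeR 2 fell past the threshold, against 1.80% of all genes. Pfkp, the platelet-type phosphofructokinase, had 4529 to 6445 counts in MLPKO and 2175 to 2798 in MLPKO-cRADKO (-1.09 ± 0.11, adjusted p = 0.00188). Gapdh had 104420 to 127270 and 85386 to 94222 counts (-0.32 ± 0.07, adjusted p = 0.0316). Neither had overlapping groups. The call of Pfkp held without any one mouse (adjusted p at most 0.0130), while that of Gapdh held only without MLPKO mouse 2, 3 or 4 and otherwise reached 0.0775. In DESeq2 3 were called lower and 0 higher, against 10.0% of all genes in either direction. The gene called only there was Gpi1 (-0.15 ± 0.05, adjusted p = 0.135 in edgeR and 0.0334 in DESeq2). Its counts were 20409 to 22268 in MLPKO and 17518 to 19802 in MLPKO-cRADKO, which did not overlap.

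Of 21 factors known to act on Pdk4 and on TCA cycle genes, 1 passed the threshold in edgeR, against 2.74% of all genes. In DESeq2 2 were called higher and 1 lower, against 10.0% of all genes in either direction. Foxo1, a forkhead factor that binds the Pdk4 promoter, had 1006, 1058, 1098, 1083 and 1106 counts in MLPKO and 1341, 1170, 1361, 1408 and 1231 in MLPKO-cRADKO, with no overlap (log2 fold change 0.28 ± 0.06 SE, adjusted p = 0.0389). Its adjusted p ran from 0.00389 to 0.0906 over the alternatives, and with a mouse left out the call held only without MLPKO mouse 4 or MLPKO-cRADKO mouse 2. Ppargc1a, the coactivator PGC-1 alpha, had 2287 to 4018 counts in MLPKO, the lowest in mouse 2, and 3808 to 4763 in MLPKO-cRADKO, which overlapped (0.43 ± 0.13, adjusted p = 0.0785 in edgeR and 0.0203 in DESeq2). Esrrg, an estrogen-related receptor, had 2441 to 3183 and 2241 to 2412 counts, which did not overlap (-0.24 ± 0.08, adjusted p = 0.0941 in edgeR and 0.0409 in DESeq2). These 2 genes had the next smallest adjusted p values of the list and were named after their values were seen.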

How the data were processed

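RNA was measured in 10 ventricles, 5 MLPKO and 5 MLPKO-cRADKO, each a separate mouse, and groups were taken from the sample titles. Polyadenylated RNA was sequenced, and the submitters' processing notes name FastQC, STAR, featureCounts and GRCm39. The deposited values were raw counts per gene, which the authors had not normalized, and their versions and settings for strand and shared reads are not given in the sources used here. Without strand, reads of a gene and of an antisense partner cannot be told apart. Exons of Idh2, Idh3g, Pdhb, Pdk2, Idh3a and Mpc1 overlap those of genes on the other strand by 21.4% to 29.4% of their bases. Of 60676 genes in the table, 3491 without values were not used here. GENCODE M39 gave gene names and positions.

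Following the methods of the study, a gene needed over 10 counts in 6 or more mice, and predicted genes (Gm, Rik) were dropped. TMM factors and the quasi-likelihood test of edgeR 4.0.16 (R 4.3.3) were used, with Benjamini-Hochberg adjustment over the 13453 genes. Called genes had an adjusted p under 0.05. Standard errors and 95% intervals came from the F statistic. Normalized counts were scaled to the mean effective library. Ratios of raw counts were tested by exact permutation (two-sided) over all 252 splits of the mice, with code checked against scipy 1.17.1. Levels per kilobase used the length of one transcript per gene. Promoters were the RefSeq windows of GRCm38.p6, found for 27 of 29 members, and are on another build than the gene positions. The scripts were tested on simulated data.

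DESeq2 1.42.0, which the study used, and limma-voom 3.58.1 were alternatives, as were RLE and upper-quartile factors, leaving out mitochondrially encoded genes, other filters, Gm and Rik genes kept, robust dispersion, the mouse number as a block, and leaving out each mouse. DESeq2 without MLPKO mouse 2 and the sum of Mpc1 and Mpc1-ps were added after the data were seen. The members and lists were chosen with earlier results of these data known. Every mouse is given for the members with the 6 smallest adjusted p and those of the 6 pairs, and Pdp2 and Pcx were added after their values were seen. The other lists are represented by their called genes, or by the 3 with the smallest adjusted p where there were none.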

Additional observations from a re-analysis of the deposited data

Results flagged for a closer look

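In groups of 5 mice, a mouse was singled out where its gap to the nearest other mouse was over 0.71 of the whole range of its group, which chance gives in about 1 of 20 groups. Of 72 groups examined, 7 had such a mouse. In MLPKO, mouse 2 was low for Mpc1 (1882.5 normalized counts, next 2061.8) and mouse 5 was high for Mdh1 (80424, next 74550). In MLPKO-cRADKO, mouse 4 was high for Pdp2 (2047.2, next 1393.4) and for Suclg1 (13309, next 11746), mouse 3 was high for Pdk3 (125.34, next 81.639), and mouse 1 was low for Suclg2 (6597.9, next 7463.7). The log2 ratio of Got1 to Got2 was high in MLPKO-cRADKO mouse 3 (0.40951, next 0.0839). MLPKO-cRADKO mouse 3 was also the mouse with adipocyte transcripts (28.3 CPM summed over the markers), whose part in these values was not tested. In MLPKO-cRADKO mouse 1 the atrial markers Myl4 and Myl7 were the highest of all mice, and the part of that was not tested either.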

How the results depend on the processing

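Leaving the threshold aside, 22 of the 29 members kept the sign of their log2 fold change under all 21 alternatives, and 7 did not, each of them close to zero. The number of members called higher was 0, against 2 with DESeq2 (Suclg2 and Got1), 2 with DESeq2 without MLPKO mouse 2, 1 with upper-quartile factors (Suclg2), and 0 to 1 when a mouse was left out (1 without MLPKO mouse 4, where the adjusted p of Suclg2 was 0.0359). No alternative called a member lower. Of the other pathway genes, Acly was lost with no filter on low counts (0 called higher). When the mouse number was a block, the pathway genes called higher were 0 and those called lower 0, and it changed no call of a member. Correlations of same-numbered mice ran from -0.0442 to 0.152 and 2 of 5 numbers had each other as best partner, so the numbers were not taken to pair the mice, which are different animals. Leaving out a mouse gave 0 to 1 pathway genes called higher, and 0 to 1 called lower. Over all genes, 47 to 826 were called when a mouse was left out and 281 with the block, against 369. The sign turned for Pdk1 with upper-quartile factors (0.0086), and with DESeq2 without MLPKO mouse 2 for Pdk2 (-0.028), Cs (-0.015), Ogdh (-0.054) and Sucla2 (-0.00024). When a mouse was left out, the log2 fold change ran from -0.051 to 0.0040 for Pdk1, -0.024 to 0.095 for Pdk2, -0.15 to 0.0034 for Pdp1, -0.012 to 0.064 for Cs, -0.051 to 0.059 for Ogdh and -0.051 to 0.0017 for Mdh1, and the log2 ratio of Pdha1 to Pdhb from -0.048 to 0.042. The cause of these turns was not tested. Other scalings moved the median of all genes by at most 0.025 on the log2 scale. With 5 mice a group the intervals of Pdk3, Pdk4 and Pdp2 were wide, and counting error and variation between mice were not separated.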
